A study of Mus musculus with 11 samples.

Results

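Fetal-like and YAP regeneration genes were followed as a set of 8 genes, Clu, Anxa1, Msln, Il33, Sprr1a, Amotl2, Ankrd1 and Cd44, chosen by name from the 54513 genes of the count table. All 8 have a row in the table. Ankrd1 had too few counts for a test, so 7 were tested among the 19267 genes that passed the filter on low counts. RNA came from epithelial cells of the colon, enriched by a Percoll density step that is meant to remove lymphocytes. The wild-type (WT) mice carry no deletion in the labels, and the double knockout (DKO) mice have lost 2 microRNA clusters, miR-181a1-b1 and miR-181a2-b2. Baseline libraries came from mice that the labels list without treatment, 2 of WT and 3 of DKO. DSS libraries, 3 of each genotype, came from mice given 2% dextran sulphate sodium (DSS), a polysaccharide that injures the colonic epithelium, over 7 days and then left for 2 days without it. The labels give neither strain background, age nor sex, and do not say whether each library is 1 mouse. The labels name no Cre or promoter for the deletion.

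After injury, colonic epithelium can pass through a repair state in which genes of the fetal gut are switched on again. The Hippo kinases STK3, STK4, LATS1 and LATS2 keep the coactivators YAP and TAZ (gene symbol Wwtr1) out of the nucleus, and free YAP or TAZ drives transcription together with TEAD factors. This pathway is known to be needed for the fetal-like repair state of the gut. The 8 genes take different places in it. Anxa1, Il33 and Clu encode secreted or released proteins, Msln and Cd44 surface proteins, Sprr1a an envelope protein of stressed epithelia, and Amotl2 and Ankrd1 are transcriptional targets of YAP.

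The microRNAs that the DKO mice lack are printed here because the genotype comparison rests on them. miR-181a-5p is encoded at chr1:137966468-137966490 and again at chr2:38852741-38852763, and miR-181b-5p at chr1:137966650-137966673 and chr2:38853845-38853868, all on the plus strand (RefSeq, GRCm38.p6). Capitals mark the seed, bases 2 to 8, which both share.
miR-181a-5p: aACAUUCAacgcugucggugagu
miR-181b-5p: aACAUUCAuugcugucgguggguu
Each gene's longest 3' UTR (GENCODE M21, GRCm38, at least 100 bases) was searched for matches to this seed. TGAATGT pairs with bases 2 to 8, and GAATGTA pairs with bases 2 to 7 with an A after it. Of the 8 genes only Il33 held a match, and it held 2, both GAATGTA, in a 3' UTR of 1677 bases. Across 19921 genes searched in the same way, 22.1% held at least 1 match. Capitals mark the match in the Il33 sites, at chr19:29960461-29960467 and chr19:29960558-29960564 on the plus strand.
Il33 site 1: caatagctggagGAATGTAtgatcaaaga
Il33 site 2: cttactgtagagGAATGTAaaggcggaat
A match is a description of letters, and no reporter or binding data bear on it here.

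Promoters from RefSeq (GRCm38.p6, 250 bases before to 50 bases after the start) were found for 6 of the 8 genes, with 2 starts for Il33. Clu and Msln had no entry. They were searched on both strands for 3 short motifs, none of which overlapped another in these promoters. The TEAD core searched was GGAATG, printed as its reverse complement where it lies on the other strand. For AP-1 the letters searched were TGANTCA. The TATA box was searched as TATAAA. The TEAD core was present in 4 of the 6 genes, Anxa1, Il33 (at both starts), Amotl2 and Ankrd1, against 14.7% of 32851 promoters of the same length. Ankrd1 held 2 copies, as 1.36% of all promoters did. TGANTCA was present in 1 gene, Sprr1a, which held 2 copies, against 7.81% of promoters with at least 1 copy and 0.46% with 2 or more. TATAAA was present in Anxa1, Il33 and Sprr1a, against 13.6% of promoters. The Cd44 window held none of the 3. The 250 bases before the start are printed for 4 genes with a TEAD or AP-1 core, from 5′ to 3′ on the gene's strand, with these cores in capitals. Amotl2 and Anxa1, whose values differ from each other across the 4 groups as described further on, carry the same short TEAD core. Ankrd1, with too few counts for a test, carries it too. Sprr1a carries the AP-1 core and not the TEAD core.
Amotl2 (chr9:102717554-102717803, plus strand): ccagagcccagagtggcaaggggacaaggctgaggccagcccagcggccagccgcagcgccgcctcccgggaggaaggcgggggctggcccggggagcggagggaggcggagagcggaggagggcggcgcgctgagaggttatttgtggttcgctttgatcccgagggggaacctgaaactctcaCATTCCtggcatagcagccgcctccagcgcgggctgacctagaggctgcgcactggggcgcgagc
Ankrd1 (chr19:36119845-36120094, minus strand): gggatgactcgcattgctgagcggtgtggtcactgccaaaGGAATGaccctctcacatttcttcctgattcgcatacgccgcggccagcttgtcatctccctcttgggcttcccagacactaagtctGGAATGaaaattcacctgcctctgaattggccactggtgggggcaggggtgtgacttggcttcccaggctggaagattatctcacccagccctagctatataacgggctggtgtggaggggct
Anxa1 (chr19:20390672-20390921, minus strand): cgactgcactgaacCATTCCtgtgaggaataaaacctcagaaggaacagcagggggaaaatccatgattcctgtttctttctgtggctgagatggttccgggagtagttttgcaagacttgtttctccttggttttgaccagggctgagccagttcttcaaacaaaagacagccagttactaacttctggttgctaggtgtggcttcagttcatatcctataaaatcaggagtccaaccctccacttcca
Sprr1a (chr3:92485882-92486131, minus strand): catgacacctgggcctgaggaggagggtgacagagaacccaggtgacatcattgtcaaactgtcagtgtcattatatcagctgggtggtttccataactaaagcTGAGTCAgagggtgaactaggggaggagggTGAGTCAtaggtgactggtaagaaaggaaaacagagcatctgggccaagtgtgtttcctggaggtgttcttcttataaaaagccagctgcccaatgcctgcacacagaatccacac
The TEAD core began 65 bases before the start of Amotl2, 210 and 123 bases before that of Ankrd1, and 236 bases before that of Anxa1. In Sprr1a the 2 AP-1 cores began 146 and 116 bases before the start.

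Values are CPM, counts scaled to the library's total by the TMM method, given in the order of the replicates. Totals were 41631951 to 52761900 counts per library. The 18S ribosomal entry Rn18s-rs5 took 23.0% and 8.46% of the counts of baseline DKO replicates 1 and 2 and 0.128% to 1.59% elsewhere. Epithelial markers were high throughout, with Epcam, an epithelial adhesion molecule, at 1096 to 1758 CPM. Summed, 10 such markers had 12710.2 to 14334.8 CPM in baseline WT and 15431.2 to 17271.5 CPM in baseline DKO. After DSS the sums were 13143.1 to 14719.4 CPM in WT and lower, 11081.5 to 13005 CPM, in DKO. All baseline libraries had a male and all DSS libraries a female pattern, with Xist at 6.75 to 14.5 CPM against 633 to 906 CPM and the Y-linked Ddx3y at 42.6 to 54.9 CPM against 0.162 to 0.895 CPM. DSS and sex therefore cannot be told apart in any comparison of DSS with baseline, while both genotypes of a comparison at 1 condition share the pattern. The rows of the 4 deleted microRNA genes held 0 counts in every library of both genotypes, so the deletion could not be checked with this poly(A)-selected RNA. In bulk RNA, fewer cells of a type and less RNA per cell cannot be told apart.

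**Figure D1:**
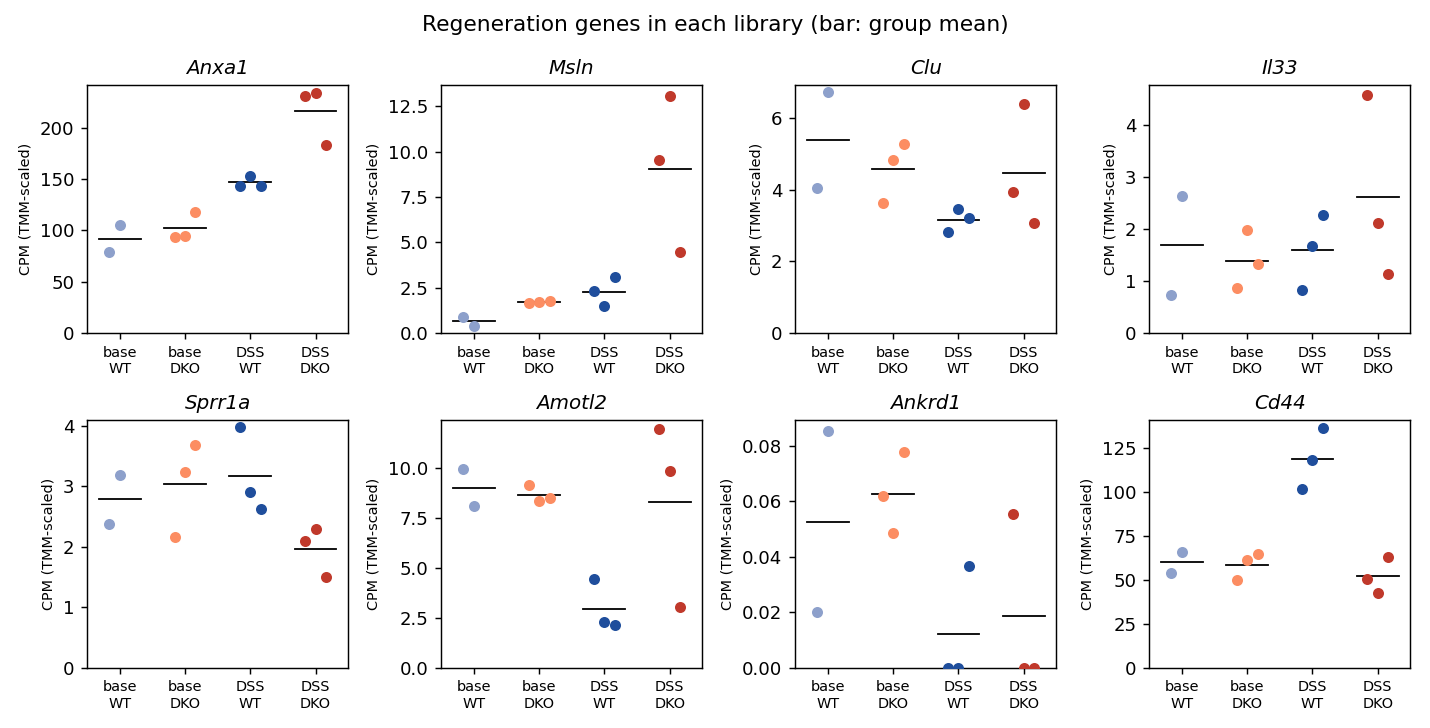
Each panel plots 1 gene, with CPM (TMM-scaled, linear axis from 0) on the vertical axis and the 4 groups on the horizontal axis; points are libraries in the order of their replicate numbers and bars are group means. Cd44 is highest in the 3 DSS WT libraries (102 to 136 CPM), Anxa1 and Msln are highest in the 3 DSS DKO libraries, and Ankrd1 has at most 0.0851 CPM in any library.

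Per kilobase of merged GENCODE M21 exons, which need not be the annotation the authors counted with, the 8 levels covered a wide range. In baseline WT (n = 2) Anxa1 led with 31.5 ± 6.4 CPM per kilobase (SD), followed by Cd44 with 8.86 ± 1.2 and Sprr1a with 3.46 ± 0.71. Clu had 1.57 ± 0.55 and Amotl2 1.43 ± 0.21 CPM per kilobase, a difference within their spread. Il33 had 0.583 ± 0.47 and Msln 0.211 ± 0.12, again within their spread, and Ankrd1 0.0182 ± 0.016. In DSS DKO (n = 3) Anxa1 had 74.2 ± 9.8 and Cd44 7.67 ± 1.5 CPM per kilobase. Msln came next with 2.94 ± 1.4, with a spread that takes in Sprr1a at 2.43 ± 0.51. Amotl2 at 1.31 ± 0.74, Clu at 1.3 ± 0.50 and Il33 at 0.902 ± 0.61 CPM per kilobase did not differ beyond their spread there.

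The first question is how the genotypes differ after injury. In DSS DKO against DSS WT, Anxa1 and Msln were higher and Cd44 was lower by edgeR's quasi-likelihood test at an adjusted p under 0.05, and the other 4 tested genes did not pass. Of all genes tested, 5.26% were called higher and 5.98% lower in this comparison. The set thus moved in both directions. Its median log2 fold change was 0.56, against 0.03 for all genes.

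At baseline none of the 7 tested genes passed in DKO against WT, where 0.0104% of all genes were called higher and 0.0156% lower. At an unadjusted p under 0.05 there was 1, Msln, as there were 751 among the 19267 genes tested, and DESeq2 on the same genes also called 0. The median log2 fold change of the set was -0.03. DSS against baseline in WT gave 3 genes higher (Anxa1, Msln and Cd44) and 1 lower (Amotl2), against 16.9% and 16.5% of all genes. In DKO it gave 2 higher (Anxa1 and Msln) and 0 lower, against 12.6% and 11% of all genes. In both genotypes sex changes together with DSS. The difference of the genotype effect between DSS and baseline (interaction) was called for 1 gene, Cd44, which was lower, against 0.773% of all genes called higher and 0.794% lower. Comparisons that share a group of libraries are not independent of each other.

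**Figure D2:**
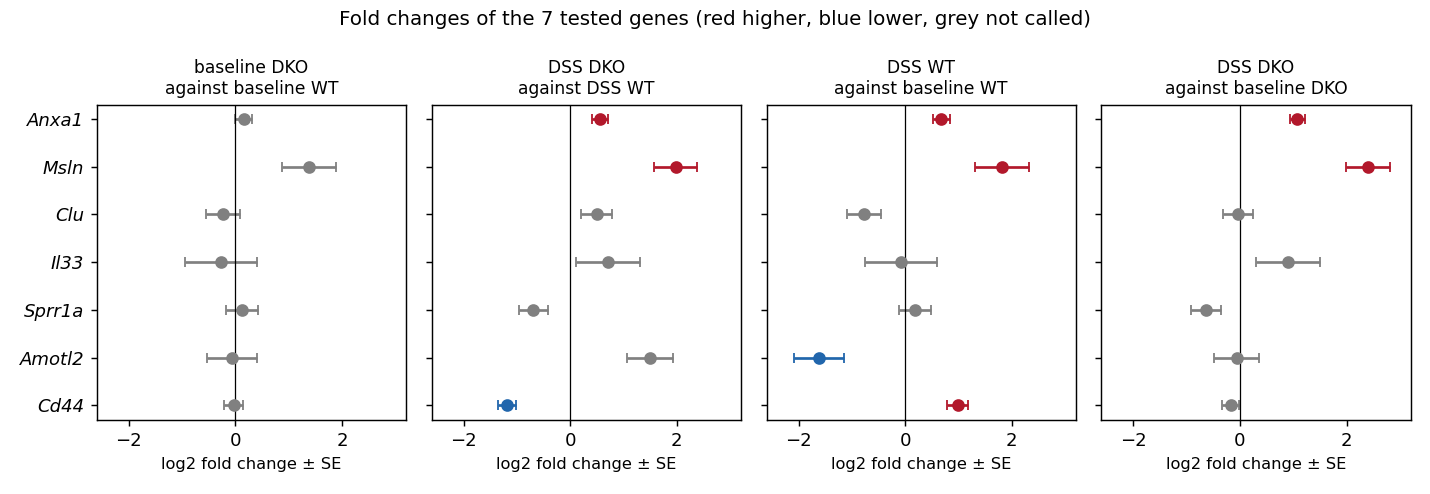
Points are log2 fold changes of the 7 tested genes (horizontal axis) with bars of ± 1 SE from the fit to all 11 libraries, in 4 comparisons; red and blue mark calls at an adjusted p under 0.05. Cd44 has a log2 fold change of 0.98 in DSS WT against baseline WT and of -1.19 in DSS DKO against DSS WT, and Msln lies right of 0 in every panel.

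Anxa1 (ENSMUSG00000024659.15, chr19:20373428-20390944, minus strand) encodes annexin A1, a calcium-dependent phospholipid-binding protein that is released during inflammation and acts through formyl peptide receptors. It had 78.4 and 105 CPM in baseline WT and 93.9, 94.9 and 118 CPM in baseline DKO. After DSS the values were 144, 153 and 143 CPM in WT and 231, 234 and 183 CPM in DKO. Every DSS library lay above every baseline library, and every DSS DKO library above every DSS WT library.

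The Anxa1 difference between DSS DKO and DSS WT was 0.56 ± 0.14 on the log2 scale (SE; 1.47-fold; adjusted p = 0.0270, edgeR). The call was lost without any 1 of the DSS WT libraries (adjusted p = 0.0604 to 0.105) or without DSS DKO replicate 2 (0.115), with log2 fold changes of 0.50 to 0.59 in these fits. Against baseline, Anxa1 was higher by 0.68 ± 0.16 in WT (adjusted p = 0.00838, and 0.105 without baseline WT replicate 1) and by 1.08 ± 0.14 in DKO (0.000521). The interaction was 0.40 ± 0.21 (adjusted p = 0.339, edgeR) and did not pass.

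The receptors of annexin A1 were measured beside it. Fpr1, the high-affinity formyl peptide receptor of myeloid cells, had 0.235, 0.336 and 0.661 CPM in DSS WT and 1.39, 1.54 and 0.998 CPM in DSS DKO. It was higher by 1.66 ± 0.46 (adjusted p = 0.0389, edgeR), a call lost in 6 of 18 other settings, among them the leave-outs of DSS WT replicates 1 and 2 and DSS DKO replicates 1 and 2. Fpr2 had 0.118, 0.242 and 0.440 CPM in DSS WT and 0.962, 0.527 and 0.363 CPM in DSS DKO and did not pass (adjusted p = 0.364). Some neutrophil markers moved in the same direction. Of 11 such markers 5 were higher and 0 lower in DSS DKO, against 5.26% and 5.98% of all genes. Summed, the 11 markers had 184 to 265 CPM in DSS DKO (Ly6g 113 to 144 CPM) and 70.4 to 83.0 CPM in DSS WT. Csf3r, a neutrophil receptor, overlapped, at 0.823 to 2.17 CPM in DSS WT and 0.658 to 2.07 CPM in DSS DKO. So did Cxcr2, at 0.431 to 1.61 and 0.703 to 1.84 CPM. Ly6g, which defines neutrophils but had 15.5 to 21.3 CPM in all baseline libraries too, rose by 2.10 ± 0.17. The part of neutrophils in the Anxa1 and Fpr1 values was not tested.

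Other annexins were listed as family. In DSS DKO against DSS WT, Anxa6, a membrane-organising annexin, fell by 0.98 on the log2 scale (adjusted p = 0.00406, edgeR), from 15.8, 15.5 and 12.8 CPM to 6.96, 7.27 and 8.14 CPM. This is the opposite direction to Anxa1. Anxa2 (0.00 ± 0.12), Anxa5 (0.09 ± 0.12) and Anxa8 (0.79 ± 0.37, adjusted p = 0.208), which stand on the list of fetal-like genes as well, did not pass; these 3 were picked out after their values were seen.

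Il33 (ENSMUSG00000024810.16, chr19:29925114-29960718, plus strand) encodes interleukin-33, a nuclear cytokine that damaged cells release as an alarm signal. It had 0.727 and 2.64 CPM in baseline WT and 0.867, 1.99 and 1.32 CPM in baseline DKO. In the DSS libraries it had 0.823, 1.68 and 2.28 CPM in WT and 4.57, 2.11 and 1.13 CPM in DKO. All 4 groups overlapped. In DSS DKO against DSS WT the log2 fold change was 0.71 ± 0.60 (adjusted p = 0.487, edgeR), and no comparison passed. Counts were 28 to 247 per library, and its SE of 0.60 in this comparison stands against 0.17 for Cd44.

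The receptor of interleukin-33 had the largest fold change of the 21 partner genes tested in this comparison. Il1rl1, which encodes the receptor chain ST2, had 0.242 and 0.128 CPM in baseline WT and 0.464, 0.266 and 0.175 CPM in baseline DKO. In DSS WT it had 0.392, 2.01 and 1.23 CPM, and in DSS DKO 2.98, 35.6 and 64.1 CPM. The 3 DSS DKO libraries lay above all others but were far apart from each other, and the library with the highest Il1rl1 level had the lowest Il33 level of its group. The difference was 4.81 ± 1.01 (adjusted p = 0.0173, edgeR), and it was not called without DSS WT replicate 3, without DSS DKO replicate 2 or with only the 2 groups compared in the fit (adjusted p up to 0.0647). With DSS, Il1rl1 rose in DKO by 6.88 ± 1.17 (adjusted p = 0.00369, edgeR). In WT its log2 fold change of 2.69 ± 1.37 did not pass (adjusted p = 0.158), though the groups did not overlap. The interaction of 4.19 ± 1.96 did not pass either (adjusted p = 0.289), so a rise particular to DKO was not shown. Il1rap, the shared accessory chain, had 12.6, 15.96 and 18.3 CPM in DSS WT and 13.3, 19.6 and 26.2 CPM in DSS DKO and did not pass (0.33 ± 0.22, adjusted p = 0.356).

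Some fibroblast markers had the same order over the DSS DKO libraries as Il1rl1, an order whose share among all genes was not counted. Dcn, which encodes the matrix proteoglycan decorin, had 12.6, 47.8 and 57.5 CPM there against 6.92 to 10.3 CPM in DSS WT, and Pdgfra had 1.28, 5.12 and 8.71 CPM against 0.149 to 0.901 CPM. Of 10 fibroblast markers 4 were higher and 1 lower, against 5.26% and 5.98% of all genes. Col1a1, Col1a2, Lum, Thy1 and Fbln1 had lower means in DSS DKO than in DSS WT, and the others had higher means. The summed level of the 10 overlapped, at 228 to 375 CPM in DSS DKO and 297 to 350 CPM in DSS WT. Col1a1 and Col1a2 made up most of it. None of the 10 was at 0 counts in any library. Mast cells also carry ST2. Of 8 mast cell markers 4 were lower in DSS DKO, against 5.98% of all genes. Summed, the 8 markers had 77.7 to 115 CPM in DSS DKO and 91.1 to 234 CPM in DSS WT. Kit, also present in epithelium, made 59.1 to 101 CPM of these sums. Cpa3, Fcer1a, Mcpt4 and Ms4a2, which define mast cells, were at 0 counts in 1 or 2 of the 11 libraries each, but in no DSS library except DSS DKO replicate 3, where 1 was at 0. The part of these cells in the Il1rl1 values was not tested.

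**Figure D3:**
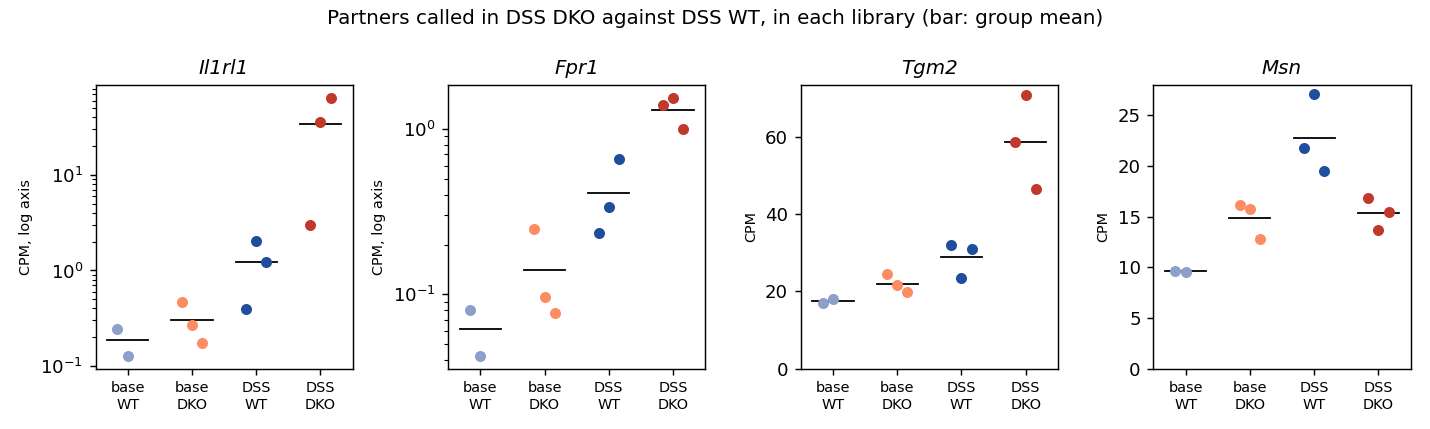
CPM of the 4 partner genes called in DSS DKO against DSS WT, by group, with points for libraries and bars for group means; the axes of Il1rl1 and Fpr1 are logarithmic and those of Tgm2 and Msn start at 0. Il1rl1 spans 2.98 to 64.1 CPM within DSS DKO, Fpr1 and Tgm2 are higher in all 3 DSS DKO libraries than in DSS WT, and Msn is lower.

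Among cytokines of the same family, Il18, an epithelial cytokine, had 39.8, 47.4 and 45.2 CPM in DSS WT and 75.2, 84.9 and 71.1 CPM in DSS DKO. The groups did not overlap and Il18 was higher by 0.80 ± 0.12 (adjusted p = 0.00216, edgeR). In WT it fell with DSS by 0.71 on the log2 scale (adjusted p = 0.00230), from 67.4 and 76.9 CPM. Il1b, an inflammatory cytokine of myeloid cells, rose with DSS by 5.64 ± 0.48 in WT and 5.18 ± 0.40 in DKO, and its genotype difference after DSS did not pass (-0.52 ± 0.30, adjusted p = 0.300).

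Clu (ENSMUSG00000022037.15, chr14:65968483-65981547, plus strand) encodes clusterin, a secreted chaperone that marks a rare repair stem cell of the gut. It had 4.04 and 6.72 CPM in baseline WT and 3.62, 4.82 and 5.26 CPM in baseline DKO. After DSS the values were 2.82, 3.47 and 3.19 CPM in WT and 3.92, 6.38 and 3.06 CPM in DKO. The 3 DSS WT libraries lay below both baseline WT libraries, and the log2 fold change of -0.77 ± 0.32 did not pass (adjusted p = 0.0828, edgeR), though it did with only these 2 groups in the fit (0.0484). DSS DKO overlapped DSS WT (0.50 ± 0.29, adjusted p = 0.303). The clusterin receptors Lrp2, Lrp8 and Vldlr did not pass in the genotype comparison after DSS either, with Vldlr at 1.12 ± 0.34 (adjusted p = 0.0644), from 24.7 to 28.5 CPM in DSS WT and 29.1 to 96.4 CPM in DSS DKO.

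Msln (ENSMUSG00000063011.7, chr17:25748613-25754378, minus strand) encodes mesothelin, a surface protein of mesothelium that is also found in the fetal-like epithelial state. It had 0.909 and 0.383 CPM in baseline WT and 1.64, 1.69 and 1.75 CPM in baseline DKO. In the DSS libraries it had 2.29, 1.49 and 3.08 CPM in WT and 9.53, 13.0 and 4.49 CPM in DKO. The DSS DKO libraries stood above all others, and baseline WT stood below all others.

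Mesothelin RNA was higher in DSS DKO than in DSS WT by 1.98 ± 0.40 on the log2 scale (3.94-fold; adjusted p = 0.0107, edgeR). Leaving out DSS WT replicate 2 (adjusted p = 0.0508) or DSS DKO replicate 2 (0.0555) ended the call, with log2 fold changes of 1.74 and 1.62. Against baseline, Msln was higher by 1.82 ± 0.50 in WT (adjusted p = 0.0169, and not called without baseline WT replicate 2 or DSS WT replicate 3) and by 2.41 ± 0.41 in DKO (0.00218). At baseline its DKO to WT difference was 1.38 ± 0.50 (adjusted p = 1; unadjusted p = 0.0175), and with no filter on low counts it was called (adjusted p = 0.0380). The interaction was 0.59 ± 0.63 (adjusted p = 0.663), and its sign turned without baseline WT replicate 1 (-0.16).

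No marker of mesothelium was called higher beside Msln in the genotype comparison after DSS. Of 8 markers 0 were higher and 1 was lower, against 5.26% and 5.98% of all genes. The lower marker was Cldn15, a claudin that intestinal epithelium expresses too. It made up most of the summed level of 94.4 to 134 CPM in DSS DKO and 173 to 202 CPM in DSS WT. Upk3b, which defines mesothelium, had 2.72, 4.17 and 2.38 CPM in DSS DKO and 2.70, 1.83 and 4.86 CPM in DSS WT (-0.02, adjusted p = 0.986). Wt1 had 0.611, 0.911 and 0.862 CPM against 0.235, 0.186 and 0.165 CPM, at 2.01 with an adjusted p of 0.0701. No marker of this list was at 0 counts in a library. Muc16, which encodes the mucin that mesothelin binds, had 0.998 to 2.17 CPM in DSS DKO and 1.27 to 3.47 CPM in DSS WT and did not pass.

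In the comparisons with baseline WT some mesothelium markers were ordered as Msln was. At baseline 0 of the 8 were called in DKO against WT, and their summed level, again mostly Cldn15, was 151 to 182 CPM in WT and 169 to 201 CPM in DKO. Upk3b had 1.33 and 0.298 CPM in baseline WT and 2.60, 2.18 and 2.68 CPM in baseline DKO (1.60 ± 0.57, adjusted p = 1, edgeR). Upk3b, Lrrn4 and Gpm6a were each lower in baseline WT than in baseline DKO without overlap, as Msln was. Wt1, Upk1b, Bnc1, Cldn15 and Muc16 overlapped. The share of all genes without overlap was not counted, and with so few libraries groups often separate by chance. In DSS WT against baseline WT 3 of the 8 were higher and 0 lower, against 16.9% and 16.5% of all genes. These were Gpm6a (2.03 ± 0.50, adjusted p = 0.00931, edgeR), Upk3b (1.93 ± 0.57, 0.0232) and Upk1b (1.02 ± 0.35, 0.0397). Of the same 8, in DSS DKO against baseline DKO, 1 was higher (Gpm6a, 1.19 ± 0.39, adjusted p = 0.0465, edgeR) and 1 lower (Cldn15). Among all genes 12.6% were higher and 11% lower. Upk3b had 0.31 ± 0.46 there (adjusted p = 0.650, edgeR). The part of mesothelium in the Msln values was not tested.

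Cd44 (ENSMUSG00000005087.17, chr2:102811141-102901665, minus strand) encodes the hyaluronan receptor of crypt base cells, a Wnt target that leukocytes carry too. It had 54.2 and 65.9 CPM in baseline WT and 50.1, 61.3 and 64.5 CPM in baseline DKO. After DSS it had 102, 118 and 136 CPM in WT and 50.3, 42.6 and 63.1 CPM in DKO. All 3 DSS WT libraries lay above the other 8, and the DSS DKO libraries overlapped both baseline groups.

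Of the set, Cd44 had the lowest adjusted p after DSS. It was lower in DSS DKO than in DSS WT by 2.29-fold, a log2 fold change of -1.19 ± 0.17 (adjusted p = 0.00180, edgeR), and the call held under every alternative run. With DSS it rose in WT by 0.98 ± 0.19 (adjusted p = 0.00292) and had a log2 fold change of -0.17 ± 0.17 in DKO (adjusted p = 0.463). The interaction of -1.16 ± 0.25 passed (adjusted p = 0.0431). That call was lost without any 1 of 8 of the 11 libraries (adjusted p = 0.0608 to 0.197), namely all 5 baseline libraries, DSS WT replicates 2 and 3 and DSS DKO replicate 2.

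Partners of CD44 were mixed. Msn, which encodes moesin, a linker of CD44 to actin, had 9.68 and 9.55 CPM in baseline WT and a mean of 14.9 CPM in baseline DKO. These groups did not overlap, and the difference of 0.63 ± 0.18 on the log2 scale was not called. After DSS, Msn had 21.7, 27.1 and 19.4 CPM in WT and 16.8, 13.7 and 15.5 CPM in DKO. It was lower in DSS DKO than in DSS WT by -0.57 ± 0.16 on the log2 scale (adjusted p = 0.0403, edgeR), a call lost in 9 of 18 other settings, among them the leave-outs of each DSS WT library, DSS DKO replicates 2 and 3, both baseline WT libraries and baseline DKO replicate 2. With DSS it rose in WT by 1.24 ± 0.19 (adjusted p = 0.000797) and in DKO its log2 fold change was 0.04 ± 0.16. Ezr and Rdx, its paralogs, did not pass, and neither did Spp1, Vcan, Hmmr or Has3 in DSS DKO against DSS WT. Markers of T and natural killer cells, which carry CD44, moved in the same direction as Cd44. Against 5.98% and 5.26% of all genes, 8 of 13 such markers were lower and 0 higher in DSS DKO. Their summed level was 33.2 to 65.3 CPM in DSS DKO, 122 to 137 CPM in DSS WT, 22.5 to 43.1 CPM in baseline WT and 25.4 to 37.6 CPM in baseline DKO. Gzma and Gzmb, with means of 47.4 and 27.5 CPM, made up most of the sum in DSS WT. Trdc, Cd4 and Cd7 overlapped between the genotypes after DSS. None of the 13 was at 0 counts in any library, and the part of these cells in the Cd44 and Msn values was not tested. Neutrophils carry CD44 too, and some of their markers moved in the opposite direction.

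**Figure D4:**
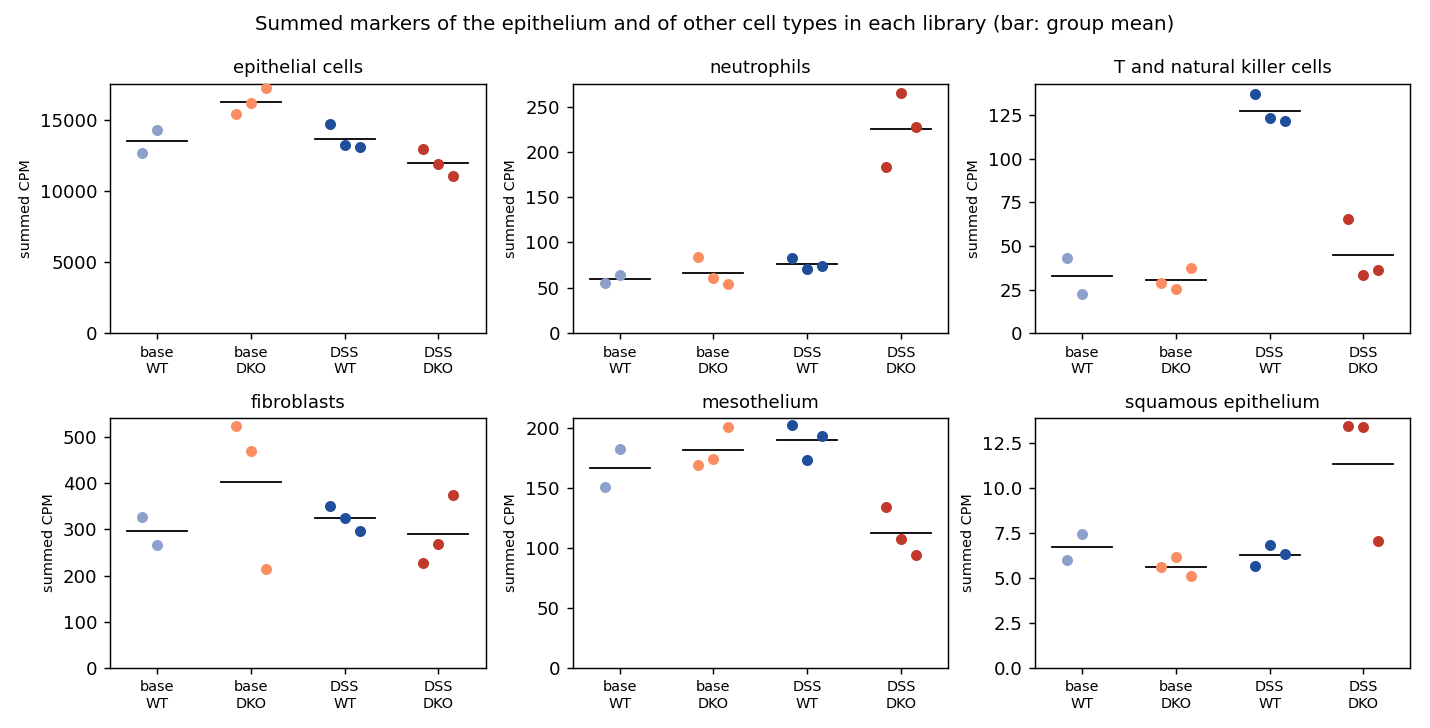
Summed CPM of marker lists (vertical axes from 0) in each library, with bars for group means, for epithelium (10 genes), neutrophils (11), T and natural killer cells (13), fibroblasts (10), mesothelium (8) and squamous epithelium (12). Neutrophil markers are highest in DSS DKO (184 to 265 CPM), and T and natural killer markers are highest in DSS WT (122 to 137 CPM).

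Sprr1a (ENSMUSG00000050359.7, chr3:92483952-92485895, minus strand) encodes a small proline-rich protein, a substrate of transglutaminases in the envelope of stressed epithelial cells. It had 2.38 and 3.19 CPM in baseline WT and 2.17, 3.24 and 3.69 CPM in baseline DKO. After DSS it had 3.98, 2.91 and 2.62 CPM in WT and 2.09, 2.29 and 1.497 CPM in DKO. The DSS DKO libraries lay below the DSS WT libraries without overlap, and the log2 fold change of -0.69 ± 0.27 did not pass (adjusted p = 0.130, edgeR).

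Transglutaminases, the enzymes that crosslink SPRR proteins, differed among themselves. Tgm2 had 32.1, 23.5 and 31.0 CPM in DSS WT and 58.5, 70.7 and 46.5 CPM in DSS DKO, higher by 1.02 ± 0.17 (adjusted p = 0.00397, edgeR). Tgm3 fell with DSS from 1373 to 1695 CPM in baseline WT to 240 to 379 CPM in DSS WT (-2.35 ± 0.61, adjusted p = 0.0170, not called without either baseline WT library or DSS WT replicate 2 or 3), and from 1230 to 1477 CPM to 23.6 to 166 CPM in DKO (-4.08 ± 0.62, 0.00215). Its genotype difference after DSS did not pass (-1.87 ± 0.56, adjusted p = 0.0650). Ivl, the envelope protein involucrin, had at most 0.0851 CPM.

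The Sprr2 genes lie beside Sprr1a and are near-identical copies of one another, so reads may be divided among them uncertainly. Sprr2a1, Sprr2a2 and Sprr2a3 fell with DSS in both genotypes, by 1.67, 1.80 and 1.47 on the log2 scale in WT. In DSS DKO against DSS WT, Sprr2a2 was lower (-1.18 ± 0.18, adjusted p = 0.00234, edgeR) while Sprr2a3 did not pass (0.47 ± 0.20, 0.168). Sprr2a2 was lower in DKO at baseline too, with 10.5, 11.2 and 10.7 CPM against 23.2 and 32.4 CPM in WT (-1.36 ± 0.19, adjusted p = 0.0420), a call lost in 10 of 18 other settings, among them the leave-outs of each baseline and DSS WT library and of DSS DKO replicate 2. Sprr2b was called higher but had 0 counts in all 3 DSS WT libraries and 0 to 0.315 CPM in DSS DKO, so its level was near that of single reads, and the call was lost in 10 of 15 other settings. Sprr1b was at 0 counts in all 11 libraries. Squamous epithelium of the anorectal margin, which is rich in SPRR proteins, was followed by 12 markers. Of the 7 tested, 1 was higher in DSS DKO and 0 lower, against 5.26% and 5.98% of all genes. The higher marker was Dsg3, with 3.59, 3.85 and 1.59 CPM against 0.353 to 0.447 CPM in DSS WT. Summed, the 12 markers had 7.08 to 13.5 CPM in DSS DKO and 5.68 to 6.82 CPM in DSS WT. Krt5, which defines it, had at most 0.249 CPM, and Trp63 was at 0 in 5 of the 6 DSS libraries. The part of such cells in the Sprr values was not tested.

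Amotl2 (ENSMUSG00000032531.15, chr9:102716672-102733418, plus strand) encodes angiomotin-like 2, a target of YAP that in turn binds YAP and restrains it. It had 9.92 and 8.08 CPM in baseline WT and 9.16, 8.35 and 8.47 CPM in baseline DKO. After DSS it had 4.43, 2.27 and 2.13 CPM in WT and 11.9, 9.82 and 3.06 CPM in DKO. All 3 DSS WT libraries lay below all 5 baseline libraries. In DSS DKO, 2 libraries were within or above the baseline range and replicate 3 lay within the DSS WT range.

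In WT, Amotl2 was lower after DSS by 3.06-fold (-1.61 ± 0.47 on the log2 scale, adjusted p = 0.0243, edgeR), a call that ended without either baseline WT library or without DSS WT replicate 2 or 3 (adjusted p = 0.0665 to 0.135). In DKO the log2 fold change was -0.06 ± 0.42 (adjusted p = 0.927). The genotype difference after DSS was 1.49 ± 0.44 and just missed the threshold (adjusted p = 0.0516). It passed in 7 other settings, among them DESeq2 (0.00383), the stricter filter (0.0436), the fit without DSS WT replicate 1 (0.0274) and the fit without DSS DKO replicate 3 (0.00264). The interaction of 1.55 ± 0.63 did not pass (adjusted p = 0.220), except with no filter (0.00128) and without DSS DKO replicate 3 (0.0322). Of the paralogs, Amotl1 fell with DSS by 1.20 in WT (adjusted p = 0.00272) and 0.77 in DKO (0.0200, not called without baseline DKO replicate 2 or DSS DKO replicate 2), and Amot did not pass; both were picked out after their values were seen.

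Ankrd1 (ENSMUSG00000024803.9, chr19:36111961-36120099, minus strand) encodes a cardiac ankyrin repeat protein and is a standard reporter gene of YAP activity in many cell types. It had 1 and 4 counts in baseline WT, 2, 2 and 4 in baseline DKO, 0, 0 and 2 in DSS WT and 3, 0 and 0 in DSS DKO. In the 4 libraries at 0 counts, the limit of 3 counts allows up to 0.0559 to 0.0680 CPM, a bound on counting error only. No difference was detectable at this depth. The pair of targets therefore differed in what they could show, Amotl2 being measured with 116 to 644 counts per library and Ankrd1 with at most 4.

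A list of other YAP and TAZ target genes was followed beside Amotl2 and Ankrd1. The list was written from general knowledge, with earlier results of these data known. In DSS DKO against DSS WT 5 of 24 tested were higher and 1 lower, against 5.26% and 5.98% of all genes. The list's median log2 fold change was 0.47, against 0.03 for all genes. Edn1, which encodes the vasoconstrictor endothelin-1, had 22.5, 40.0 and 33.4 CPM in DSS WT and 77.9, 135 and 156 CPM in DSS DKO (1.94 ± 0.30, adjusted p = 0.00428, edgeR). Asap1, an Arf GTPase-activating protein, was higher by 0.69 ± 0.13, and Tead1, a TEAD factor that is on the Hippo list too, by 0.66 ± 0.14 (not called without DSS WT replicate 2 or 3 or DSS DKO replicate 2). Over the 3 DSS DKO libraries Edn1, Asap1 (28.4, 29.7 and 31.8 CPM) and Rbms3, all called higher, had the order of Dcn. The share of all genes with that order was not counted, so it does not single these genes out. Axl and Tead1, called higher too, had another order. The part of stromal cells in these values was not tested. Nt5e, the ectonucleotidase CD73, was lower (-0.88 ± 0.17, adjusted p = 0.00814). Ccn1, a matricellular protein and classic YAP target, rose with DSS in both genotypes, by 1.86 ± 0.40 in WT and 2.62 ± 0.36 in DKO (in WT not called without baseline WT replicate 2), and its genotype difference did not pass (0.42 ± 0.33, adjusted p = 0.465). The list gave 2 higher without DSS DKO replicate 2, 3 higher without DSS WT replicate 2 or with only the 2 groups in the fit, and 8 higher with DESeq2, with 1 lower each time.

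With DSS in WT the direction of that list was mixed, with 2 of 24 genes higher and 7 lower, against 16.9% and 16.5% of all genes, and a median of -0.32. Without either baseline WT library or DSS WT replicate 2, 4 were lower. Tead1 went from 52.7 and 47.7 CPM to 22.3, 18.5 and 17.7 CPM (-1.37 ± 0.15, adjusted p = 0.000212, edgeR). In DKO 4 were higher and 2 lower, against 12.6% and 11% of all genes, with a median of 0.12. Tead1 had 33.7, 41.0 and 29.96 CPM at baseline and 31.8, 30.7 and 29.9 CPM after DSS in DKO, which did not pass (-0.18 ± 0.14). Axl, a receptor tyrosine kinase, rose in DKO by 2.14 ± 0.38 (adjusted p = 0.00234) and in WT had a log2 fold change of 0.51 ± 0.42.

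Components of the Hippo pathway itself were called in both directions between the genotypes after DSS, 2 higher and 3 lower of 27, against 5.26% and 5.98% of all genes, with a median of 0.14. Yap1 had a log2 fold change of 0.01 ± 0.17. Wwtr1, which encodes TAZ, had 0.647, 0.466 and 0.734 CPM in DSS WT and 1.05, 1.64 and 2.86 CPM in DSS DKO (1.58 ± 0.36, adjusted p = 0.0178, edgeR). It is also expressed by stromal cells, and its order over the 3 DSS DKO libraries was that of Dcn. The share of all genes with that order was not counted, and the part of such cells was not tested. Tead2 was lower (-1.35 ± 0.24, adjusted p = 0.00540), from 5.92, 6.21 and 8.24 CPM to 3.22, 2.57 and 2.18 CPM. The kinase gene Stk3 was lower by -0.47 ± 0.11 (adjusted p = 0.0189). Wwtr1 was not called without DSS WT replicate 2 or DSS DKO replicate 2 or 3, nor Stk3 without DSS WT replicate 2 or 3 or DSS DKO replicate 2. The list gave 0 higher and 1 lower without DSS WT replicate 2 or DSS DKO replicate 2, 1 of each without DSS WT replicate 3, 5 higher and 2 lower without DSS WT replicate 1 or DSS DKO replicate 3, and 6 and 5 with DESeq2. With DSS in WT 6 rose and 5 fell of 27, against 16.9% and 16.5% of all genes, with Sav1 (0.92 ± 0.14), Mob1a (0.64 ± 0.11) and Rassf1 (0.63 ± 0.16), scaffold and adaptor genes of the kinases, among those that rose. Rassf1 was not called without baseline WT replicate 2, and 2 genes fell without baseline WT replicate 1. In DKO 6 rose and 3 fell, against 12.6% and 11% of all genes, and without baseline DKO replicate 2 there was 1 of each.

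A wider list of fetal-like and injury-induced epithelial genes, likewise written from general knowledge with earlier results known, had calls in 1 direction only in the 3 comparisons given here. In DSS DKO against DSS WT 6 of 24 tested were higher and 0 lower, against 5.26% and 5.98% of all genes. The list's median log2 fold change was 0.27, against 0.03 for all genes. Ly6c1, a surface protein of the Ly6 family, had 6.37, 10.6 and 9.21 CPM in DSS WT and 59.0, 53.4 and 30.9 CPM in DSS DKO (2.45 ± 0.28, adjusted p = 0.000744, edgeR). Plaur, the urokinase receptor, was higher by 1.03 ± 0.20 and Ereg, the growth factor epiregulin, by 1.44 ± 0.35. Ly6a, which encodes Sca-1 and is the most used marker of the fetal-like state, had a log2 fold change of 0.00 ± 0.17 between the genotypes after DSS. Without any 1 of the DSS WT libraries or without DSS DKO replicate 2 the list gave 3 higher and 0 lower. Ereg was not called in those fits nor without DSS DKO replicate 3.

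Against baseline the list gave 10 of 24 higher and 0 lower in WT (5 higher without baseline WT replicate 1), where 16.9% of all genes were higher, and 12 higher and 0 lower in DKO, where 12.6% were. Ly6a rose in both, by 1.59 ± 0.20 and 1.29 ± 0.17, and Cldn4, a tight junction protein, by 0.89 ± 0.15 and 1.24 ± 0.13. In all these comparisons with baseline, sex moves with DSS and cannot be told apart from it.

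**Figure D5:**
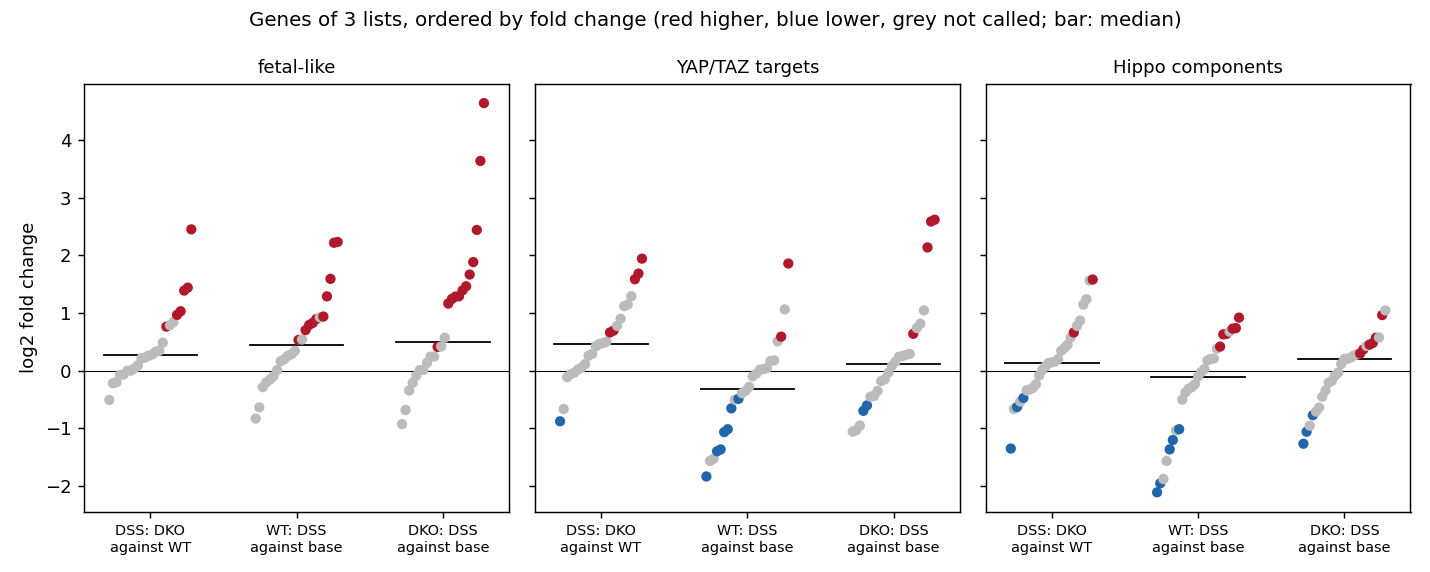
Log2 fold changes (vertical axis) of the tested genes of 3 lists in 3 comparisons, each ordered from lowest to highest, with a bar at the list's median; red and blue mark genes called higher and lower. In fetal-like genes called points lie above 0 in all 3 comparisons, while in YAP and TAZ targets 7 are lower and 2 higher in WT after DSS.

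The 8 genes did not share 1 profile over the 11 libraries. Profiles were compared by the root mean square difference of centred log2 CPM, a description with no test. Among the 7 tested genes the nearest pair was Clu and Sprr1a (0.49) and the farthest Msln and Amotl2 (1.58). The 0.49 is above the root mean square of each gene of that pair about its own mean, 0.40 for Clu and 0.39 for Sprr1a. DSS DKO replicate 3 had the lowest value of its group for Anxa1, Msln, Il33, Clu, Sprr1a and Amotl2 and the highest for Cd44.

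The genes most like each one were looked up among 11186 named genes, or 11187 for Il33, whose mean log2 CPM reached 1 or more. Nearest to Anxa1 were Slc25a25 (root mean square difference 0.14), Ly6g2 (0.14) and Mrps34 (0.15). For Cd44 they were Acsl4 (0.20), Ap3s1 (0.20) and Zfp367 (0.20), each called higher in DSS WT against baseline WT and lower in DSS DKO against DSS WT. Amotl2 was nearest to Ttc22 (0.22), Rnf39 (0.24) and Anks6 (0.24), each called lower in DSS WT against baseline WT. The genes near Cd44 and Amotl2 were picked by likeness over the same libraries, so these shared calls follow largely from the choice. Msln, whose own root mean square over the libraries was 1.35, was nearest to C3 (0.48), Tmem181c-ps (0.63) and Ggt1 (0.63), and Il33, with 0.76, to Vsig1 (0.53), Gpatch4 (0.56) and Scoc (0.57). Sprr1a was nearest to Hoxaas3 (0.15), Hes6 (0.19) and Stmn1 (0.20), and Clu to Dnajc17 (0.22), Rsph3a (0.23) and Sult1c2 (0.23).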

How the data were processed

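RNA was sequenced from colonic epithelial cells of 11 samples, 2 baseline WT, 3 baseline DKO, 3 DSS WT and 3 DSS DKO, with libraries made from poly(A) RNA, per the labels' protocols. The deposited table holds whole-number read counts per gene; reads were aligned with STAR to mm10, per the submitters' processing notes. The counting tool, annotation, strand setting and STAR version were not given in the sources used here, so overlapping and antisense genes could not be told apart.

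The counts were fitted with edgeR 4.0.16 (R 4.3.3): filterByExpr with a minimum count of 10, TMM scaling, 1 mean per group over all 11 libraries and the robust quasi-likelihood test. p-values were adjusted by Benjamini-Hochberg over 19267 genes, with a threshold of 0.05, and an SE is the size of a log2 fold change over the root of its F. The p-values measure the spread between samples that the labels call biological replicates. Totals of 41631951 to 52761900 counts per library set the counting error, and floors of 3 counts cover that error only.

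No 2 libraries of a group agreed within counting noise. The 8 genes and all gene and marker lists were chosen with earlier results of these data known. Named from each list were up to 4 genes called between genotypes after DSS and up to 4 called against baseline, by lowest adjusted p, of which 1 gene is not reported here; other list genes were picked after their values were seen, and the 3 most like genes by profile distance. Alternatives were DESeq2 1.42.0, its size factors, no filter, a stricter filter (minimum count 50), only the groups compared, a replicate block, no Rn18s-rs5, and leaving out each library. Their use on named list genes, and the search for miR-181 matches, were added after the data were seen. Gene positions, exon lengths and 3' UTRs came from GENCODE M21 and promoters and microRNAs from RefSeq, both on GRCm38.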

Additional observations from a re-analysis of the deposited data

Results flagged for a closer look

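The genotype effect after DSS differed from that at baseline, by the interaction test (edgeR's quasi-likelihood test, adjusted over all genes), for Cd44 and for 8 of the 28 named list genes, against 0.773% of all genes higher and 0.794% lower. The list genes were picked by tests on values that also enter the interaction, so their count is a description. Values are log2 differences, DSS effect in DKO minus DSS effect in WT, and all of them share the change of sex between DSS and baseline. For Cd44 the value was -1.16 ± 0.25 (adjusted p = 0.0431), lost without any 1 of 8 of the 11 libraries. Ly6c1 had 2.42 ± 0.42 (adjusted p = 0.0199). Of the YAP targets, Edn1 had 2.41 ± 0.44 (adjusted p = 0.0297), Asap1 0.89 ± 0.19 (0.0434) and Tead1 1.19 ± 0.21 (0.0190). Tead2, another TEAD factor, went the other way with -1.74 ± 0.36 (adjusted p = 0.0365). Il18 had 0.96 ± 0.18 (adjusted p = 0.0239), while Anxa6 had -1.39 ± 0.25 (0.0207) and Msn -1.20 ± 0.24 (0.0326). Each value takes in the baseline difference of DKO against WT, such as 0.63 ± 0.18 for Msn and -0.52 ± 0.15 for Tead1, neither called. Each of these 8 list genes lost its interaction call in 6 to 10 of 17 other settings, with adjusted p up to 0.0871 to 0.143, and all 8 lost it without baseline WT replicate 1, baseline WT replicate 2 or DSS DKO replicate 2. Over all genes the interaction calls went from 302 to as few as 2 when 1 library was left out.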

How the results depend on the processing

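The number of the 7 tested genes called was 1 to 4 (3 in the reported fit) when single libraries were left out of DSS DKO against DSS WT, 2 to 4 (4) for DSS in WT, 2 to 2 (2) for DSS in DKO, 0 to 0 (0) at baseline and 0 to 2 (1) for the interaction. Over all genes the counts were 691 to 3064 (2165), 2775 to 7378 (6432), 2605 to 5788 (4545), 1 to 5 (5) and 2 to 1498 (302). With no filter 1 of the 7 was called at baseline and 2 in the interaction. All genes called came to 1372 with only the groups compared after DSS, to 19 (DESeq2), 79 (no filter) and 3 (replicate block) at baseline, and to 1344 (DESeq2) and 1469 (no filter) for the interaction.

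Deviations of same-numbered libraries correlated at -0.07 to 0.30, highest between DSS WT and DSS DKO (0.30 for replicate 1 and 0.20 for replicate 3). Libraries with unlike numbers were not compared, so these values cannot settle whether replicate numbers pair the samples. The reported fit has no block. With a replicate block, 4 of the 7 and 2236 genes were called between genotypes after DSS, 4 and 6075 for DSS in WT, 2 and 5290 for DSS in DKO, and 1 and 318 for the interaction; of the 7 only Amotl2 changed its call. The block turned 2 uncalled signs, Amotl2 at baseline (0.25) and Il33 for DSS in WT (0.081).

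No called value of the 7 genes reversed. Uncalled log2 values turned sign on leaving out a library, with these ranges over the leave-outs. At baseline they were -0.55 to 0.20 for Clu, -0.034 to 0.40 for Anxa1, -0.91 to 0.96 for Il33, -0.066 to 0.37 for Sprr1a, -0.18 to 0.099 for Amotl2 and -0.17 to 0.13 for Cd44. For DSS in WT they were -0.73 to 1.15 for Il33 and -0.027 to 0.43 for Sprr1a. For DSS in DKO they were -0.39 to 0.17 for Clu and -0.43 to 0.33 for Amotl2, and for the interaction -0.16 to 1.07 for Msln and -0.24 to 1.63 for Il33. The baseline and WT ranges, and those of the interaction, ended at fits without 1 of the 2 baseline WT libraries, except the low end of Sprr1a in WT (without DSS WT replicate 1). The cause was not tested. Of 339 values of the named list genes between genotypes after DSS, 292 kept their call, 47 lost it and 0 reversed. Of 136 interaction values of these genes 79 kept their call and 57 lost it, and 0 reversed. Depth limits Ankrd1, with at most 4 counts per library.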
